A study of Mus musculus with 12 samples.

Results

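Heat-shock chaperones are proteins that bind unfolded or newly made proteins and help them fold, assemble or be degraded. The Hsp70 family includes genes that are induced by stress (Hspa1a and Hspa1b) and a constitutive gene (Hspa8), and the cytosolic Hsp90 family likewise has a stress-responsive gene (Hsp90aa1) and a constitutive one (Hsp90ab1). Hspd1 and Hspe1 encode the mitochondrial chaperonin Hsp60 and its partner Hsp10, Hsph1 encodes an Hsp110 protein that exchanges nucleotide on Hsp70, Dnajb1 encodes a J-domain partner of Hsp70, and Hspb1 encodes a small heat-shock protein. Under stress, the transcription factor HSF1 binds arrays of inverted nGAAn units and activates the inducible genes. In the mouse embryo, inducible Hsp70 is also known as one of the earliest gene products of genome activation, made without an external stress.

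These 10 genes were taken by name from a list of chaperones, out of 55266 genes in all. Of the 10, 9 had at least 10 counts in at least 2 libraries and were among the 19384 genes tested, and Hspb1 was not. RNA was measured in 12 libraries of E14, a line of mouse embryonic stem cells, with the genotype 2C::3xtbGFP, a fluorescent reporter of the 2-cell-like state whose promoter the labels do not name. All cells were grown with serum and LIF and plated without the CHIR99021 and PD0325901 inhibitors, and they were collected at 48 h of culture after 0, 6 or 24 h of sorbitol, an osmotic stressor. They were then sorted into tbGFP-negative cells (tbGFPneg) and tbGFP-positive cells (tbGFPpos), 50000 cells a sample. This gave 6 groups of 2 libraries. The 0 h libraries, also at 48 h of culture, are the only ones without sorbitol. Separate cultures are not stated for the libraries of a group, so p-values measure the spread among these libraries, which may be technical.

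Total counts ranged from 2306870 to 7900178 per library, so that 3 counts stood for 0.38 to 1.301 CPM before TMM scaling. Levels are given as CPM, the count divided by the library's TMM-scaled size. Summed markers of pluripotent cells lay between 7398 and 10699 CPM in every library. The 12 markers of the 2-cell-like state summed to 17.2 to 39.6 CPM in tbGFPneg at 0 h and to 37435 to 63452 CPM in tbGFPpos over the 3 times. Primitive endoderm markers summed to at most 16.0 CPM, and fibroblast markers to at most 49.8 CPM with Postn at 0. Trophectoderm markers summed highest in tbGFPpos at 6 h, at 201 to 232 CPM, mostly from the keratin genes Krt8 (88.1 and 116) and Krt18 (112 and 106). In the same libraries Cdx2 stood at 0 and 0, Eomes at 0 and 1.99 and Gata3 at 0.604 and 4.68 CPM. The part of these markers in the chaperone values there was not tested. The 2 tbGFPpos libraries at 6 h differed most from each other, with a chi-square per gene of 43.03 against 5.39 to 21.02 in the other groups. In these bulk libraries, fewer cells of a type and less RNA per cell cannot be told apart.

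The promoters of 4 members are shown because they hold the letters that HSF1 is known to recognise, in genes that differ in their response. Each is the 300 bases from 250 before to 50 after a RefSeq transcript start on GRCm38.p6, read 5′ to 3′ on the gene's strand. Hspa1a is at chr17:34972107-34972406 (minus strand), Hspa1b at chr17:34959189-34959488 (minus), Hspe1 at chr1:55087898-55088197 (plus) and Hsph1 at chr5:149636287-149636586 (minus). Capitals mark matches to GAANNTTC or TTCNNGAA, each of which reads the same on both strands, and overlapping matches run together.
Hspa1a: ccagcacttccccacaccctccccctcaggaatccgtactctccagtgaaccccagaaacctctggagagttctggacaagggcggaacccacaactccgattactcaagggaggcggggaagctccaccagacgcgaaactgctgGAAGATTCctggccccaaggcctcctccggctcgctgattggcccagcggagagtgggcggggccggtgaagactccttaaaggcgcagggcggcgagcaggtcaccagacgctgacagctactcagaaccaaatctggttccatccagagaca
Hspa1b: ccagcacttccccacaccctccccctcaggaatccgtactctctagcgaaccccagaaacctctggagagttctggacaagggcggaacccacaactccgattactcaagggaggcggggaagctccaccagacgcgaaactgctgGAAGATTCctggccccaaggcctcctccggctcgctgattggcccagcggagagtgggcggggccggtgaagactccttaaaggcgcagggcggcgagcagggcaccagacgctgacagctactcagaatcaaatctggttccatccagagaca
Hspe1: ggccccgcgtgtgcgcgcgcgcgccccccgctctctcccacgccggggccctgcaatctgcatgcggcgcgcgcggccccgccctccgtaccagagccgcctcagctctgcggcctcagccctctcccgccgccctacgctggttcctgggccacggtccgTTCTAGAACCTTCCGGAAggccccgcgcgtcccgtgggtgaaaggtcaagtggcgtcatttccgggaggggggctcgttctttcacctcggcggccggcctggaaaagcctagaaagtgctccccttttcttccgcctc
Hsph1: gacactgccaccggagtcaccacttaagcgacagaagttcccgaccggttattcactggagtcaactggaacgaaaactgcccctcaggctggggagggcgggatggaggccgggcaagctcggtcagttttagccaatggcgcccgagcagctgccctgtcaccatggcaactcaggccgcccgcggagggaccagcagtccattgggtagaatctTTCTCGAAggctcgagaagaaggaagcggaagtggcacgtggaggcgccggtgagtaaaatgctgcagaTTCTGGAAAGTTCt
Hspa1a and Hspa1b each held 1 match, GAAGATTC, starting at position -104 from the transcript start. Hspe1 held 3 overlapping matches in the run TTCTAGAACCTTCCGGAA, from position -89. The second annotated Hspd1 start lies on the opposite strand of the same region, where its window shares 285 bases with that of Hspe1 and holds the same run. Hsph1 held TTCTCGAA before the start and TTCTGGAAAGTTC after it. Neither the window of the first Hspd1 start nor either of the Dnajb1 windows held a match, and Hspb1 held 2. No window was available for Hspa8, Hsp90aa1 or Hsp90ab1, so the promoters of these genes were not searched. Of 32851 mouse promoter windows, 15.1% held GAANNTTC or TTCNNGAA, and 0.6% held the three-unit form GAANNTTCNNGAA or its complement. A match is a description of these letters and not a measured binding site.

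The Hspa1a and Hspa1b windows were identical at 296 of 300 bases. The 4 differences were C44T, T47C, T249G and C276T, with the Hspa1a base first and positions counted from the 5′ end of the window. Their coding sequences were identical at 1915 of 1926 aligned positions (99.4%). Of all 50-base stretches of the Hspa1a transcript, 58.8% also occurred in Hspa1b, and 62.3% of those of Hspa1b occurred in Hspa1a. None was shared with Hspa8. How the deposited counts split reads that fit both copies is not stated, so the 2 genes are uncertain as separate values, and their sum is the safer quantity.

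Before sorbitol, the stress-inducible Hsp70 genes Hspa1a and Hspa1b were higher in tbGFPpos than in tbGFPneg cells. Hspa1a stood at 1.49 and 1.93 CPM in tbGFPneg and at 63.6 and 27.7 CPM in tbGFPpos at 0 h, from 4 and 17 against 332 and 112 counts. Hspa1b stood at 7.84 and 5.68 CPM against 141 and 104 CPM. The fractions did not overlap for either gene, although the tbGFPpos libraries differed from each other by more than the tbGFPneg ones. Hspa1b was higher in tbGFPpos by 4.24 ± 0.28 (log2 ± SE; edgeR quasi-likelihood test, adjusted p = 2.19e-08) and Hspa1a by 4.66 ± 0.46 (edgeR, adjusted p = 2.52e-06), or by 3.95 without tbGFPpos replicate 1. In this comparison 2 of the 9 tested members were called higher and 0 lower, where 7.11% of all tested genes were called in either direction at an adjusted p below 0.05.

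The other 7 tested members showed no called difference between fractions at 0 h. Hsp90ab1 stood at 2784 and 2487 CPM in tbGFPneg and at 3781 and 2537 CPM in tbGFPpos, and Hspd1 at 3797 and 3832 against 3388 and 4110 CPM, so the ranges overlapped for both. Hspa8, the constitutive Hsp70 gene, stood at 13.1 and 21 against 15.9 and 9.64 CPM, also with overlap. The log2 difference was 0.26 ± 0.16 for Hsp90ab1, -0.02 ± 0.13 for Hspd1 and -0.43 ± 0.86 for Hspa8. For Hspd1 an approximate 95% interval, taken from the SE by the normal distribution, was -0.27 to 0.22. It is narrower than the F test would give.

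**Figure D1:**
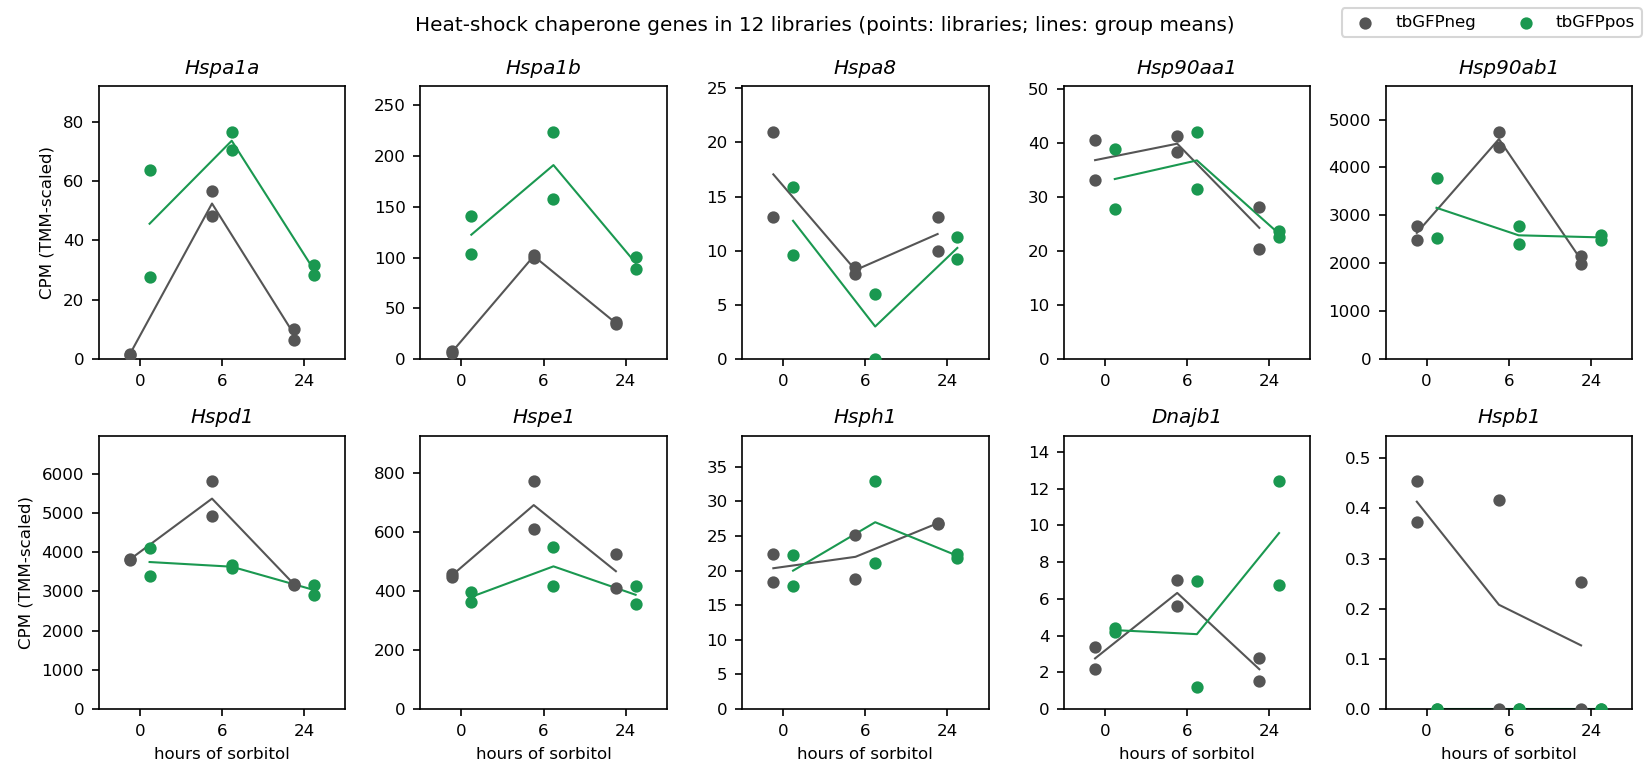
Level of each of the 10 chaperone genes in TMM-scaled CPM (y axis, from 0, with its own scale per gene) against hours of sorbitol (x axis) for tbGFPneg (grey) and tbGFPpos (green), with 1 point per library and lines through group means. Hspa1a and Hspa1b start near 0 in tbGFPneg, peak at 6 h and end below tbGFPpos at 24 h, while Hsp90ab1 reaches 4436 and 4750 CPM in tbGFPneg at 6 h.

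At 6 h of sorbitol, the inducible Hsp70 genes of the tbGFPneg cells had risen, and Hsp90ab1 and Hspd1 rose by less beside them. Hspa1a reached 48.3 and 56.6 CPM, between the 2 tbGFPpos libraries at 0 h, and Hspa1b reached 100.0 and 103 CPM, just below both of them. Both libraries of each gene lay far above their 0 h values, by 4.85 ± 0.46 and 3.96 ± 0.28 on the log2 scale (edgeR, adjusted p = 3.14e-05 and 1.92e-06). Hsp90ab1 reached 4436 and 4750 CPM, above both 0 h libraries, a rise of 0.80 ± 0.16 (edgeR, adjusted p = 0.0100). Hspd1 reached 5805 and 4926 CPM, again without overlap, a rise of 0.49 ± 0.13 (edgeR, adjusted p = 0.0398). Of the 9 tested members, 4 were called higher and 0 lower, where 4.44% of all tested genes were called.

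Hspe1, the partner of Hspd1 that is read from the same stretch of promoter, stood at 449 and 457 CPM at 0 h and at 773 and 612 CPM at 6 h in tbGFPneg. Its libraries did not overlap and its log2 difference of 0.61 ± 0.18 was close to that of Hspd1, but it did not pass (edgeR, adjusted p = 0.0771). Without either or both of the tbGFPpos libraries at 6 h, which are in neither group but share the scaling and the estimate of spread, it passed at 0.57 (edgeR, adjusted p = 0.0127 to 0.0133). The members' median change was 0.61 against 0.05 over all tested genes. The Hspa1a and Hspa1b calls held under all 20 alternative settings. The Hsp90ab1 call was lost with library totals as the only scaling (0.46, adjusted p = 0.133 by edgeR) and without any 1 of the 4 tbGFPneg libraries at 0 or 6 h, up to an edgeR adjusted p of 0.252, and the Hspd1 call was lost under 13 of 20 settings, up to 0.654 with library totals.

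In tbGFPpos cells, none of the tested members was called at 6 h against 0 h. Hspa1a stood at 76.7 and 70.5 CPM and Hspa1b at 224 and 158 CPM, above both 0 h libraries of that fraction in each case. The log2 differences from 0 h were 0.68 ± 0.35 for Hspa1a and 0.64 ± 0.23 for Hspa1b, and neither passed (edgeR, adjusted p = 0.246 and 0.106). Hsp90ab1 stood at 2776 and 2395 CPM and Hspd1 at 3672 and 3588 CPM, with log2 differences from 0 h of -0.29 ± 0.16 and -0.05 ± 0.13. By edgeR, 0 of the 9 members were called, where 5.90% of all tested genes were, and 2 had an unadjusted p below 0.05 (Hspa1b and Hspa8), while DESeq2 also called 0. Without tbGFPpos replicate 2 at 6 h, Hspa1b passed at 0.79 (edgeR, adjusted p = 0.0174), and Hsp90ab1 passed as lower without tbGFPpos replicate 2 at 0 h or replicate 1 at 6 h (-0.64 and -0.50, edgeR adjusted p = 0.0468 and 0.0467).

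The change from 0 to 6 h was tested directly for a difference between the fractions. The gap between tbGFPpos and tbGFPneg changed by -3.32 ± 0.35 for Hspa1b and by -4.17 ± 0.57 for Hspa1a on the log2 scale, so that it shrank (edgeR interaction test, adjusted p = 0.000503 and 0.00644). For this interaction 2 of the 9 members were called, both lower, where 0.170% of all tested genes were called. That share depended on the fit, at 1.81% in DESeq2 and 0.725% in edgeR with no filter on low counts. It was also larger without either of the tbGFPpos libraries at 6 h, which differed most from each other. For Hspd1 the interaction was -0.54 ± 0.18 and did not pass (edgeR, adjusted p = 0.232). For Hsp90ab1 it was -1.09 ± 0.23 and did not pass in edgeR (adjusted p = 0.0778), whereas DESeq2 called it at -0.97 (adjusted p = 0.036). The Hsp90ab1 interaction also passed in edgeR without tbGFPpos replicate 2 at 0 h (-1.40, adjusted p = 0.0183) and without tbGFPpos replicate 1 or 2 at 6 h (-1.25 and -1.03, adjusted p = 0.00255 and 0.00568). The Hspa1a interaction was lost without either tbGFPneg library at 0 h (edgeR, adjusted p = 0.0695 and 0.117) and in a fit of only the 8 libraries compared (0.0501), and it was -3.50 without tbGFPpos replicate 1 at 0 h.

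At 6 h itself, the fractions differed in one direction for Hspa1b and in the other for Hsp90ab1 and Hspd1. Hspa1b was higher in tbGFPpos by 0.91 ± 0.23 (edgeR, adjusted p = 0.0177), and for Hspa1a the libraries did not overlap but the difference of 0.49 ± 0.35 did not pass (adjusted p = 0.386). Hsp90ab1 was lower in tbGFPpos by a log2 difference of -0.83 ± 0.16 and Hspd1 by -0.56 ± 0.13 (edgeR, adjusted p = 0.00330 and 0.00907). Hspe1 differed by -0.52 ± 0.18 (edgeR, adjusted p = 0.0788), at 551 and 418 CPM in tbGFPpos, and passed at -0.77 without tbGFPpos replicate 1 (0.00557). Thus 1 of 9 members was called higher and 2 lower, where 12.1% of all tested genes were called. With only the 4 libraries of this time in the fit, 0 members were called, Hspa1b also lost its call without either tbGFPneg library or tbGFPpos replicate 1 (edgeR, adjusted p = 0.157, 0.128 and 0.061), and Hspd1 without tbGFPneg replicate 1 (0.0667). With upper-quartile scaling, which put the median of all tested genes at -0.40, the Hspa1b difference was 0.57 and did not pass (edgeR, adjusted p = 0.0924).

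**Figure D2:**
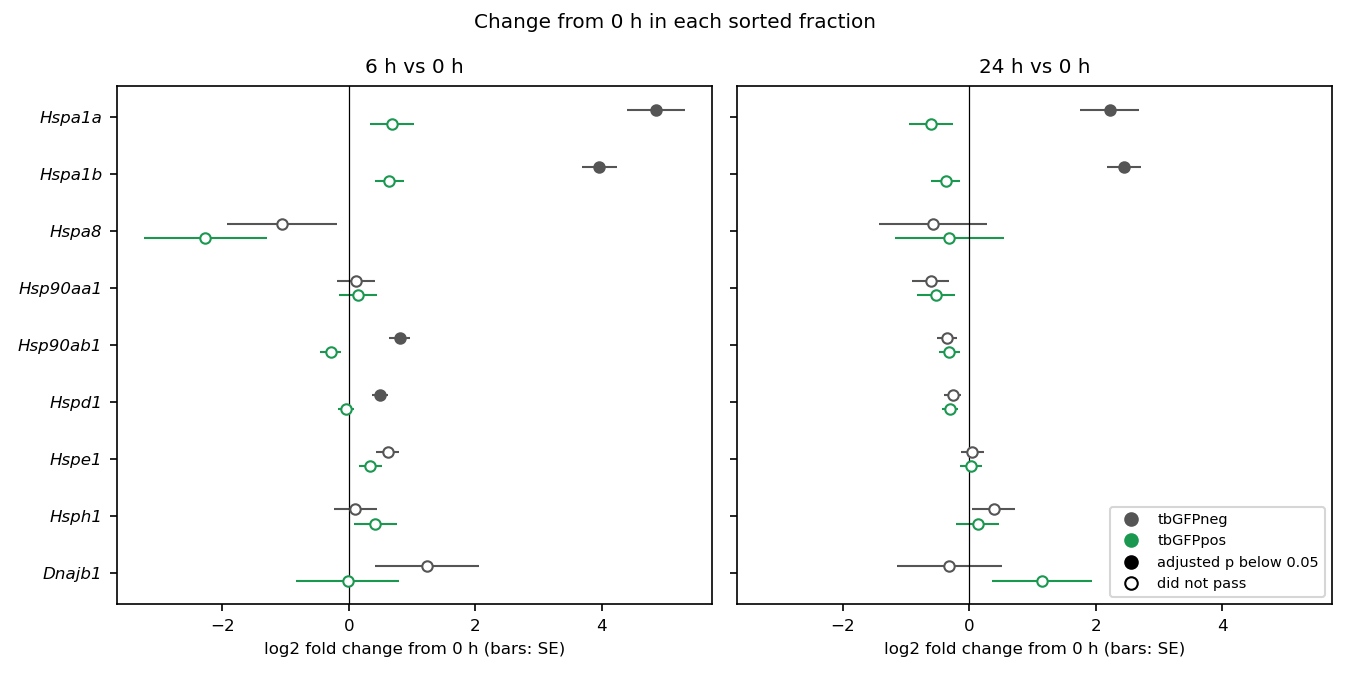
Log2 fold change from 0 h at 6 h (left) and 24 h (right) for the 9 tested members (rows), with SE bars, in tbGFPneg (grey) and tbGFPpos (green). Filled points passed an adjusted p below 0.05: Hspa1a, Hspa1b, Hsp90ab1 and Hspd1 in tbGFPneg at 6 h and Hspa1a and Hspa1b in tbGFPneg at 24 h, and none in tbGFPpos.

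By 24 h of sorbitol, Hsp90ab1 and Hspd1 of the tbGFPneg cells had fallen from their 6 h levels, and the inducible Hsp70 genes had fallen part of the way. Hspa1a stood at 10.1 and 6.60 CPM and Hspa1b at 34.2 and 36.9 CPM in tbGFPneg, between their 0 h and 6 h libraries with no overlap on either side. They fell from 6 h by 2.64 ± 0.38 and 1.51 ± 0.23 (edgeR, adjusted p = 0.000477 and 0.000905) and remained above 0 h by 2.22 ± 0.46 and 2.45 ± 0.27 (edgeR, adjusted p = 0.0106 and 5.98e-05). The rise of Hspa1a from 0 h lost its call without either 0 h library or tbGFPneg replicate 1 at 24 h (edgeR, adjusted p = 0.0975, 0.208 and 0.152). Against 0 h, 2 of 9 members were called higher and 0 lower, where 3.99% of all tested genes were called.

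Hsp90ab1 stood at 1984 and 2164 CPM and Hspd1 at 3196 and 3160 CPM in tbGFPneg at 24 h, below both 0 h libraries of each. The log2 changes from 6 h were -1.15 ± 0.16 and -0.76 ± 0.13 (edgeR, adjusted p = 0.000485 and 0.00175). Against 0 h the changes of -0.35 ± 0.16 and -0.26 ± 0.13 did not pass (edgeR, adjusted p = 0.373 and 0.395), but they did without either or both tbGFPpos libraries at 6 h (edgeR, adjusted p = 0.0358 to 0.0427). Between 6 and 24 h, 0 of the 9 members were called higher and 4 lower, where 7.91% of all tested genes were called. The Hspd1 fall was lost with library totals as the only scaling (-0.35, edgeR adjusted p = 0.131), under which the median of all tested genes stood at 0.56. Without both tbGFPpos libraries at 6 h, 7 members were called lower, where the share of all tested genes called also rose, to 20.8%.

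In tbGFPpos cells the inducible genes were also lower at 24 h than at 6 h. Hspa1a stood at 31.9 and 28.4 CPM and Hspa1b at 101 and 88.5 CPM, below both 6 h libraries. The changes from 6 h were -1.28 ± 0.35 and -1.01 ± 0.23 (edgeR, adjusted p = 0.0377 and 0.0169), so that 2 of 9 members were called lower and 0 higher, where 8.82% of all tested genes were called. Both calls were lost without tbGFPpos replicate 1 or 2 at 24 h, at log2 changes of -1.37 and -1.14 for Hspa1a and -1.11 and -0.86 for Hspa1b. Both were also lost with only the 4 libraries compared. That fit called 0 of 15227 tested genes, so the loss there is not particular to these 2 genes. The Hspa1a call was also lost without any 1 of the 6 tbGFPneg libraries, which are in neither group, at log2 changes of -1.28 to -1.21 and edgeR adjusted p of 0.0600 to 0.0775. Against 0 h, the changes of -0.60 ± 0.35 and -0.37 ± 0.23 did not pass (edgeR, adjusted p = 0.658 and 0.682). There, 0 of 9 members were called by edgeR, where 0.552% of all tested genes were, 1 had an unadjusted p below 0.05 (Hspd1), and DESeq2 called 0.

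The fractions still differed at 24 h in the inducible genes. Hspa1a was higher in tbGFPpos by 1.84 ± 0.37 and Hspa1b by 1.41 ± 0.23 (edgeR, adjusted p = 0.00464 and 0.000822), and 2 of 9 members were called higher and 0 lower, where 5.46% of all tested genes were called. Hspa1a lost its call without tbGFPneg replicate 2 at 24 h (1.65, edgeR adjusted p = 0.0896). Compared with 0 h the gap had shrunk for both genes, with interactions of -2.82 ± 0.58 for Hspa1a and -2.82 ± 0.35 for Hspa1b (edgeR, adjusted p = 0.0263 and 0.000371). These were 2 of 9 members, both lower, where 0.970% of all tested genes were called. The Hspa1a interaction was lost without 8 of the 12 libraries in turn, up to an edgeR adjusted p of 0.378, and was -2.03 without tbGFPpos replicate 1 at 0 h, whereas that of Hspa1b held under all 20 alternatives.

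In terms of means, tbGFPneg cells held 5.52% of the tbGFPpos level of Hspa1b at 0 h, 53.1% at 6 h and 37.5% at 24 h. The summed 2-cell marker list stood in tbGFPneg at 0.0477%, 0.16% and 2.35% of its tbGFPpos level at the same times. Both therefore moved in the tbGFPneg cells, with the marker list at 59.3 to 75.0 CPM at 6 h and at 863 to 916 CPM at 24 h, while Hspa1b was at its highest at 6 h. Ordered by mean, Hspa1a was lowest in tbGFPneg at 0 h, followed by tbGFPneg at 24 h, tbGFPpos at 24 h, tbGFPpos at 0 h, tbGFPneg at 6 h and tbGFPpos at 6 h, where the libraries of tbGFPpos at 0 h overlapped with those of both neighbours in that order. For Hspa1b the order was the same except that tbGFPneg at 6 h came before tbGFPpos at 0 h, and only tbGFPpos at 24 h and tbGFPneg at 6 h overlapped.

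Ratios within a library do not depend on scaling, and they set the inducible Hsp70 genes against constitutive chaperones. For each 1000 Hsp90ab1 counts there were 3.35 and 3.06 counts of Hspa1a plus Hspa1b in tbGFPneg and 54.0 and 52.0 in tbGFPpos at 0 h. At 6 h the values were 33.4 and 33.6 in tbGFPneg and 108 and 95.5 in tbGFPpos, and at 24 h they were 22.4 and 20.1 against 51.1 and 47.1. Replicates lay close together, the fractions did not overlap at any time, and tbGFPpos was higher at each. The ratio also carries the rise of Hsp90ab1 itself in tbGFPneg at 6 h. These ratios are descriptions, with no test.

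The corresponding ratio within the Hsp90 pair did not show that pattern. Hsp90aa1 stood at 11.9 and 16.3 counts per 1000 Hsp90ab1 counts in tbGFPneg and at 7.34 and 15.4 in tbGFPpos at 0 h. After 6 h it was 9.34 and 8.10 against 15.2 and 13.2, and after 24 h it was 10.3 and 13.1 against 9.14 and 9.13. Only at 6 h was tbGFPpos above tbGFPneg, at 24 h it was below, and at 0 h the libraries overlapped.

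**Figure D3:**
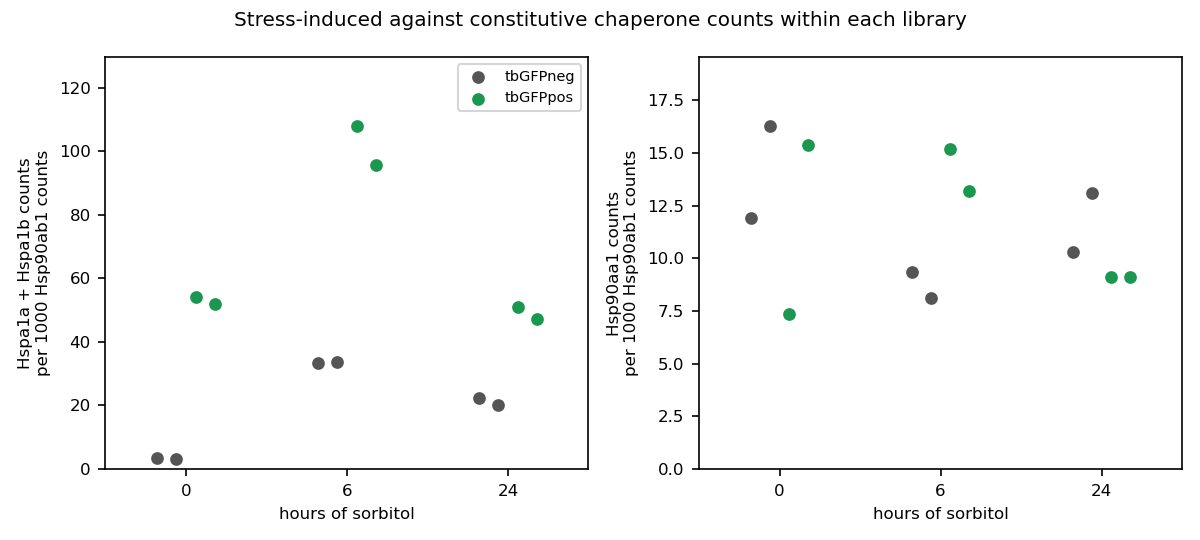
Counts of Hspa1a plus Hspa1b (left) and of Hsp90aa1 (right) per 1000 Hsp90ab1 counts in each library (y axes, from 0) against hours of sorbitol, with 1 point per library in tbGFPneg (grey) and tbGFPpos (green). The inducible Hsp70 ratio separates the fractions at every time, from 3.06 to 33.6 in tbGFPneg and from 47.1 to 108 in tbGFPpos, while the Hsp90aa1 ratio stays between 7.34 and 16.3.

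Against Hspa8, the constitutive Hsp70 gene, the ratio of inducible to constitutive counts was 0.714 and 0.362 in tbGFPneg and 12.8 and 13.7 in tbGFPpos at 0 h. It was 17.3 and 20.2 in tbGFPneg at 6 h, and 49.9 in tbGFPpos replicate 1. Replicate 2 of that group had 0 Hspa8 counts, so its ratio was at least 537 against a floor of 3 counts in that library. At 24 h it was 3.38 and 4.34 against 14.4 and 10.3. The fractions did not overlap at any time.

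That ratio rests on a poor measure of Hspa8. Its counts ran from 0 to 185 per library and 786 in all, and 96.1% of them lay on retained-intron and other noncoding transcripts, with only 31 counts on its protein-coding transcripts. The deposited counts are per transcript, and of 35022 transcripts with no base of their own on their strand only 14 had any count, against 72.2% of 82290 transcripts with at least 100 bases of their own. Reads that several transcripts share were therefore hardly counted, and the protein-coding transcripts of Hspa8 have just 292 bases of their own. The values of Hspa8 describe that small part of the gene, and levels are not compared between genes.

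The same limit touched other members to different degrees. Hsph1 had 80.7% of its counts on noncoding transcripts and 68.6% on 1 transcript. Hsp90aa1 had 88.5% and Hspe1 97.9% on protein-coding transcripts, and the remaining members had 100.0%. None of 924 transcripts that keep at least 100 bases of their own on their strand but lose them all when both strands are read had a count. Hspa1a overlaps Gm20481 and Hspd1 overlaps Hspe1 on the opposite strand, so those overlapping stretches add little or nothing to these values.

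**Figure D4:**
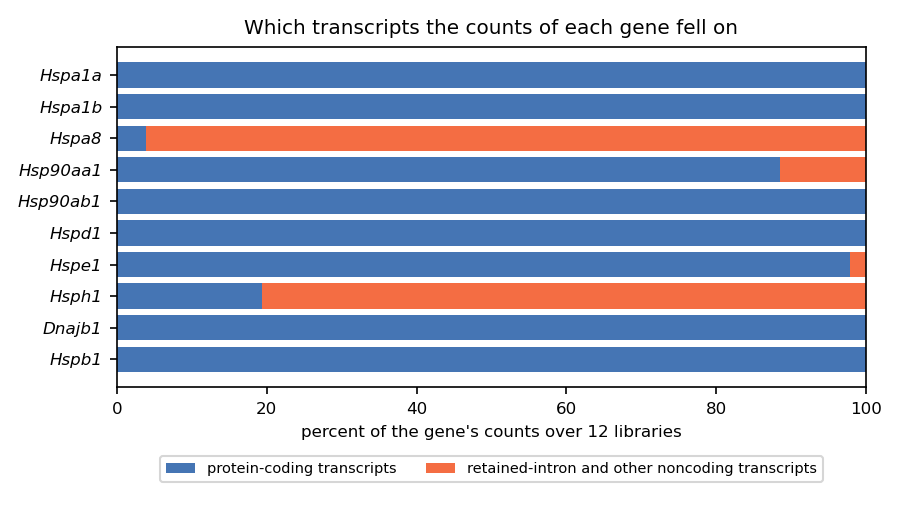
Percent of each member's counts, summed over 12 libraries (x axis, 0 to 100), that fell on protein-coding transcripts (blue) and on retained-intron and other noncoding transcripts (orange). Hspa8 with 96.1% and Hsph1 with 80.7% noncoding stand apart from the other 8 genes, which have at least 88.5% on protein-coding transcripts.

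Like Hspe1, the 4 remaining tested members were not called in any of the 11 comparisons. Hspa8 in tbGFPpos stood at 15.9 and 9.64 CPM before sorbitol, 6.04 and 0 CPM after 6 h and 9.23 and 11.3 CPM after 24 h. Both 6 h libraries lay below the others, with a log2 difference from 0 h of -2.27 ± 0.97 that did not pass (edgeR, adjusted p = 0.169). With its most counted transcript in place of the sum, or with no filter on low counts, that fall passed (edgeR, adjusted p = 0.0263 and 0.00913). It also passed without tbGFPpos replicate 1 at 6 h (1.22e-05 by edgeR), which leaves only the library with 0 counts.

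Hsp90aa1, the stress-responsive Hsp90 gene, stood at 33.2 and 40.6 CPM in tbGFPneg and at 27.8 and 39.0 CPM in tbGFPpos at 0 h. After 6 h it was at 41.4 and 38.5 against 42.2 and 31.5 CPM, and after 24 h at 20.4 and 28.3 against 23.8 and 22.7 CPM. The fractions overlapped at each time, and both fractions were lower at 24 h than in any library at 6 h. The changes from 6 to 24 h were -0.72 ± 0.30 and -0.66 ± 0.30 (edgeR, adjusted p = 0.181 and 0.174), and that in tbGFPneg passed without either or both tbGFPpos libraries at 6 h (-0.79, edgeR adjusted p = 0.0299 to 0.0308).

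Hsph1, whose window holds the three-unit motif as that of Hspe1 does, stood between 17.8 and 32.9 CPM in all libraries, and the groups overlapped widely at 0 and 6 h. The largest log2 difference of this sum was 0.42 ± 0.34, for tbGFPpos at 6 h against 0 h (edgeR, adjusted p = 0.474). On its protein-coding transcripts alone, counts were 8 and 21 in tbGFPneg and 10 and 4 in tbGFPpos at 0 h. They were 49 and 23 against 43 and 68 at 6 h, and 27 and 29 against 29 and 11 at 24 h. These few counts were not tested alone. The sum mostly describes the noncoding transcripts of Hsph1, which held 80.7% of its counts. Dnajb1 was low, with 4 to 70 counts, and stood at 3.36 and 2.16 CPM in tbGFPneg and 4.40 and 4.20 CPM in tbGFPpos at 0 h. At 24 h the values were 1.55 and 2.79 against 12.4 and 6.77 CPM, without overlap, and the log2 difference of 2.14 ± 0.81 did not pass (edgeR, adjusted p = 0.221). It passed at 2.19 with only the 4 libraries of that time in the fit and at 2.22 without either or both tbGFPpos libraries at 6 h (edgeR, adjusted p = 0.0045 and 0.00781 to 0.0113).

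Hspb1 was hardly detected, with 9 counts in all: 1 and 4 in tbGFPneg at 0 h, 0 and 2 at 6 h, 0 and 2 at 24 h, and 0 in all 6 tbGFPpos libraries. No change in it was detectable at this depth.

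The wider chaperone system was described with lists of 104 further genes, of which 88 were tested. In tbGFPneg at 6 h against 0 h, 8 were called higher and 0 lower, where 4.44% of all tested genes were called, with a median log2 change of 0.39 against 0.05 over all tested genes. The 8 were Ddit4 and Dedd2, which are listed as HSF1 targets, the endoplasmic reticulum genes Dnajb9, Calr and Creld2, the Hsp70 and Hsp90 co-chaperones St13 and Stip1, and the mitochondrial Hsp70 gene Hspa9. Ddit4, a stress-induced regulator of growth signalling, rose from 121 and 115 CPM to 624 and 686 CPM (2.47 ± 0.30; edgeR, adjusted p = 0.000236). Stip1, which links Hsp70 to Hsp90, rose from 2249 and 2208 to 3070 and 3231 CPM (0.50 ± 0.12; edgeR, adjusted p = 0.0262). Hspa9, which works with Hspd1 in mitochondria, rose from 2169 and 2215 to 3326 and 3265 CPM (0.59 ± 0.12; edgeR, adjusted p = 0.00959). For each of these genes the 2 libraries at 6 h lay above both at 0 h. With library totals as the only scaling, the median of all tested genes was -0.22 in place of 0.05. The size of rises as small as those of Stip1 and Hspa9 therefore depends on the scaling.

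From 6 to 24 h in tbGFPneg, 11 of the 88 were called lower (Ddit4, Ubb, Hspb8, Cct8, Dnajb9, Calr, Stip1, St13, Vbp1, Trap1 and Hspa9) and 2 higher (Cct3 and Xbp1), where 7.91% of all tested genes were called. Stip1 fell by 0.78 ± 0.12 and Hspa9 by 0.67 ± 0.12 on the log2 scale (edgeR, adjusted p = 0.000878 and 0.00261). Against 0 h, 0 of the 88 were called by edgeR at 24 h in tbGFPneg, where 3.99% of all tested genes were, 16 had an unadjusted p below 0.05, and DESeq2 called 7. The subunits Cct8 and Cct3 of the cytosolic chaperonin moved in opposite directions, Cct8 from 49.5 and 36.8 to 18.9 and 16.9 CPM and Cct3 from 15.1 and 10.8 to 46.7 and 42.6 CPM.

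In tbGFPpos, 2 of the 88 were called higher at 6 h than at 0 h and 0 lower, a smaller share than the 5.90% of all tested genes called. These were the J-domain gene Dnajb5, which rose from 1.15 and 0.988 to 16.3 and 7.09 CPM (3.41 ± 0.87; edgeR, adjusted p = 0.0347), and Dnajb9, from 121 and 192 to 387 and 348 CPM (1.23 ± 0.24; edgeR, adjusted p = 0.0101). From 6 to 24 h both fell (edgeR, adjusted p = 0.0281 and 0.00211), as did the co-chaperone Ptges3 by 1.00 ± 0.26 (edgeR, adjusted p = 0.0294), and Stub1 was called higher, where 8.82% of all tested genes were called. Against 0 h at 24 h, 0 of the 88 were called by edgeR, where 0.552% of all tested genes were, 10 had an unadjusted p below 0.05, and DESeq2 called 3.

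Between the fractions, Dnajb9 and Ddit4 were the 2 of 88 called at 0 h and again at 24 h, all higher in tbGFPpos, where 7.11% and 5.46% of all tested genes were called. Dnajb9, a J-domain protein of the endoplasmic reticulum, stood at 25 and 26.6 CPM in tbGFPneg against 121 and 192 CPM in tbGFPpos at 0 h (2.59 ± 0.26; edgeR, adjusted p = 2.79e-06). At 6 h, 3 of 88 were called higher in tbGFPpos (Bag5, Dnajb9 and Hspa4l) and 8 lower, which together is close to the 12.1% of all tested genes called. The lower genes included the mitochondrial Clpp (246 ± 9.22 CPM against 122 ± 30.1 CPM; SD, n = 2), Grpel1 (log2 difference -0.61 ± 0.15) and Hspa9 (-0.42 ± 0.12), the chaperonin subunit Cct8, at 7.54 and 13.6 CPM in tbGFPpos, and the co-chaperones Ppid (-1.19 ± 0.22) and Stub1. Stub1 had 33 counts in tbGFPneg and 0 in tbGFPpos, at least 10.6-fold lower taking 3 counts in the group as the floor, and Bag5 was at 20.2 and 1.70 CPM in the 2 tbGFPpos libraries. For the gap between fractions at 6 h and at 24 h against 0 h, 0 of the 88 were called by edgeR, where 0.170% and 0.970% of all tested genes were, 14 and 1 had an unadjusted p below 0.05, and DESeq2 called 2 and 0.

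The transcription factor genes Hsf1 and Hsf2 were not called in any of the 11 comparisons. Hsf1 stood between 0.494 and 22 CPM and Hsf2 between 12.3 and 26.1 CPM over the 12 libraries.

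Among 9279 other genes with a mean of at least 5 CPM, the 5 whose log2(CPM + 1) followed the mean of Hspa1a and Hspa1b most closely over the 12 libraries were Spty2d1 (Pearson r 0.985), C130013H08Rik (0.960), Dusp5 (0.957), Sox8 (0.951) and Bach1 (0.942). Hspa1a and Hspa1b themselves had an r of 0.973. Spty2d1 stood at 43.7 ± 7.34 CPM (SD, n = 2) in tbGFPneg and 190 ± 42.3 in tbGFPpos before sorbitol, 211 ± 1.53 and 289 ± 93.6 after 6 h, and 89.6 ± 8.39 and 169 ± 11.6 after 24 h. Dusp5, which encodes a phosphatase of ERK, stood at 13.3 ± 2.37 and 54.0 ± 17.9 CPM before sorbitol and 68.2 ± 10.3 and 106 ± 12.8 CPM after 6 h. Like the Hsp70 genes, both were lowest in tbGFPneg at 0 h and highest in tbGFPpos at 6 h. The points share libraries and groups, so these values describe likeness of pattern across 6 groups and carry no test.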

How the data were processed

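Total RNA of 12 samples was sequenced from stranded libraries, per the labels' protocols. The submitters' processing notes name FastQC, HISAT2, featureCounts, DESeq2 and mm10, without versions or settings. The deposited files hold raw counts for 142446 Ensembl transcripts, per the file headers. Counts of 141536 transcripts were summed per gene with GENCODE M21, and 910 unmatched transcripts (0.0606% to 0.0903% of counts) were left out. 0 columns were unmapped. The design took gene counts, so these sums were used.

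edgeR 4.0.16 (R 4.3.3) fitted the means of 6 groups over all 12 libraries with TMM factors and the robust quasi-likelihood F test on genes with 10 or more counts in 2 or more libraries. P-values were adjusted by Benjamini-Hochberg within each of 11 comparisons over all 19384 genes, at 0.05. The SE is the absolute log2 change divided by the square root of F. DESeq2 1.42.0, other scalings, no filter, the replicate block, the most counted transcript, only the libraries compared and left-out libraries were alternatives. The comparisons share control groups, so their values are given side by side. No molecular identifiers marked copied reads, so floors cover counting error only. Promoters came from RefSeq tables and coding sequences were aligned with Biopython 1.88. The pipeline was tested on simulated data.

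The members and lists were chosen with earlier results of these data known. All 10 members are named. From other lists the called genes are named, at most the 3 with the largest change per list and comparison, and the text names the 5 genes most like the Hspa1a and Hspa1b mean.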

Additional observations from a re-analysis of the deposited data

Results flagged for a closer look

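Both inducible Hsp70 genes were picked out because the change over time differed between the sorted fractions in the test of that difference itself. The gap between tbGFPpos and tbGFPneg cells changed from 0 to 6 h by -4.17 ± 0.57 for Hspa1a and by -3.32 ± 0.35 for Hspa1b on the log2 scale (edgeR, adjusted p = 0.00644 and 0.000503). From 0 to 24 h it changed by -2.82 ± 0.58 for Hspa1a (edgeR, adjusted p = 0.0263) and by -2.82 ± 0.35 for Hspa1b (edgeR, adjusted p = 0.000371). In both cases the tbGFPneg libraries at 0 h were the lowest of the 12. No group holds 4 or more libraries, so single libraries were not tested as outliers.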

How the results depend on the processing

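Of 23 called results of single members, 11 kept their call under all alternatives, 12 lost it under at least 1, and 0 changed sign. Of 76 results that were not called, 23 passed under at least 1 of the 20 alternatives and 33 changed sign. With library totals as the only scaling, 4 members were called between fractions at 0 h and 4 at 24 h, in each case 2 higher and 2 lower (Hspd1 and Hspe1), and 2 at 6 h against 0 h in tbGFPneg. Of all tested genes, library totals called 9.75%, 6.75% and 4.69% in these comparisons. That scaling moved the median of all genes to -0.41 at 0 h and -0.48 at 24 h between fractions. Fits of only the libraries compared called 0 members between fractions at 6 h and 4 at 24 h, where 4.29% and 13.7% of all tested genes were called. In tbGFPneg they called 5 at 24 h against 0 h and 7 at 24 h against 6 h, where 20.8% and 40.2% were called. At 24 h against 6 h in tbGFPpos they called 0 members and 0 of all tested genes. For the gap at 6 h they called 1 member, where 0.0530% of all tested genes were called. Without both tbGFPpos libraries at 6 h, 4 members were called at 24 h against 0 h and 7 at 24 h against 6 h in tbGFPneg. There, 10.4% and 20.8% of all tested genes were called. At 6 h against 0 h in tbGFPpos, 2 members were called with no filter and 1 with the most counted transcript. These settings called 4.73% and 5.82% of all tested genes. Leaving out 1 library at a time gave 2 to 2 called members between fractions at 0 h, 1 to 4 at 6 h and 1 to 3 at 24 h. In tbGFPneg it gave 2 to 5 at 6 h and 1 to 4 at 24 h against 0 h and 4 to 7 between them, and in tbGFPpos 0 to 2, 0 to 0 and 0 to 3. For the gap it gave 1 to 4 at 6 h and 1 to 2 at 24 h. The share of all tested genes called also varied between these fits, so the counts do not describe the members alone. Causes were not tested. With the most counted transcript and a floor of 3 Hspa8 counts, the ratio of inducible Hsp70 to Hspa8 counts ran from 0.720 to 537. The 2 highest values, 332 and 537 in tbGFPpos at 6 h, rest on that floor, with 2 and 0 counts of that transcript. The labels do not say whether replicate numbers pair the libraries. Differences between replicates were hardly correlated between groups over all tested genes (-0.04 to 0.03), which cannot exclude pairing. The fit with a replicate block took the call of Hspd1 at 6 h in tbGFPneg (adjusted p = 0.0595 by edgeR) and no other member. Over all genes, the block called 771 in place of 1143 at 6 h against 0 h in tbGFPpos, DESeq2 called 2419 there, and the fit of only the libraries compared called 4.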
